A study of Mus musculus with 12 samples.

Results

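Toll-like receptors (TLRs) and their cofactors were followed in whole BM cells from WT animals and from mice carrying mutant alleles found together in acute myeloid leukemia. The members were the 10 genes Tlr1, Tlr2, Tlr4, Tlr6, Tlr7, Tlr8, Tlr9, Tlr13, Unc93b1 and Cd14, found by gene symbol among the 12199 genes of the deposited table, and all 10 were present and passed the filter on low counts. All mice were C57BL/6. DF mice carried a Dnmt3a Flox/+ allele with MxCre and Flt3 ITD/+, TF mice were Tet2+/- with Flt3 ITD/+, and TFD mice joined Tet2+/-, Flt3 ITD/+ and the Dnmt3a Flox/+ allele with MxCre. MxCre is an interferon-responsive Cre that acts in blood cells and also in other tissues that respond to interferon, and poly(I:C) was given to all animals, WT included, at 8–10 weeks of age to induce it. Poly(I:C) is itself a mimic of double-stranded RNA and a ligand of TLR3, so every group had been exposed to a TLR ligand. Hematopoietic phenotyping was done 8–9 weeks after poly(I:C), and the RNA came from marrow that was also phenotyped. There were 3 libraries each of WT, DF and TF and 2 of TFD, and TFD replicate 3 was not analysed here. The labels do not say that each library came from its own mouse, so the p values measure the spread between libraries.

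TLRs are membrane receptors that sense microbial molecules and, in some settings, products of damaged cells. TLR1, TLR2, TLR4 and TLR6 sit on the cell surface, where TLR2 pairs with TLR1 or TLR6 to bind lipopeptides and TLR4 binds lipopolysaccharide handed over by CD14. TLR7, TLR8, TLR9 and TLR13 sense nucleic acids inside endosomes, and they reach that compartment only with the chaperone UNC93B1, which carries them out of the endoplasmic reticulum. In marrow these receptors are used by monocytes, neutrophils, dendritic cells and B cells, and most of them signal through MyD88 to NF-κB and interferon regulatory factors.

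In the annotation of mm10, the 4 surface receptor genes lay on chromosomes 3 (Tlr2), 4 (Tlr4) and 5 (Tlr1 and Tlr6). Tlr9 lay on chromosome 9, Unc93b1 on chromosome 19, and Tlr7, Tlr8 and Tlr13 on the X chromosome. Tlr1, at chr5:64924680-64933558, and Tlr6, at chr5:64953095-64960034, are neighbouring paralogs on the minus strand. In their gene models, 454 windows of 50 bases occurred in both genes, which is 13.6% of the windows of Tlr1 and 12.3% of those of Tlr6, so their counts of unique alignments are partly uncertain. No exon of a member overlapped another annotated gene.

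RefSeq promoter entries on GRCm38.p6 were used for 6 members, and no window of Cd14 was searched. Shown here are the 250 bases before the start of Tlr9, Tlr13 and Tlr6, the 3 matched receptors whose levels differed from WT in a test below. Each sequence is written 5′ to 3′ on the strand of its gene, and capitals mark GAGGAA, the core of the site that PU.1, the master regulator of myeloid genes, binds.
Tlr9, chr9:106222348-106222597, plus strand: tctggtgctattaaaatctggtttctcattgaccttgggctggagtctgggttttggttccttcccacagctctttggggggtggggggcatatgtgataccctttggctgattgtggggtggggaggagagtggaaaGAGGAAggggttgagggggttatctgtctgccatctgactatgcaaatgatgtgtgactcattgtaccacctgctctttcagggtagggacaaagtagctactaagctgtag
Tlr13, chrX:106143025-106143274, plus strand: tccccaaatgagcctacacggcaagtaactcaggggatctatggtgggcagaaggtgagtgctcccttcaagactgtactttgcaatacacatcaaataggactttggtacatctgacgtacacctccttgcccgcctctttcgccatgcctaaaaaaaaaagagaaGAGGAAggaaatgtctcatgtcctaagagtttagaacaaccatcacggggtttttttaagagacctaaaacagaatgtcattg
Tlr6, chr5:64960049-64960298, minus strand: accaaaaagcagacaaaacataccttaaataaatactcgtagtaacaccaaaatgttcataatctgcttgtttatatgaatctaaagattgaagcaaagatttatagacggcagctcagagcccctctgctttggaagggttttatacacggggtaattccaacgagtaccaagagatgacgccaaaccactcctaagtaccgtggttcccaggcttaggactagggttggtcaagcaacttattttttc
GAGGAA stood 112 bases before the start of Tlr9 and 83 bases before that of Tlr13. It was absent from the Tlr6 window shown and from another Tlr6 window that is not shown. Searched on both strands (GAGGAA or TTCCTC), it was found in 4 of the 8 windows of these 6 members, which also included windows of Tlr1 and Tlr8. It was found in 23.3% of 32851 promoter windows of this length. Such a match is a description of the letters and does not show a bound site.

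Library totals ranged from 8274153 to 15900904 counts. WT replicate 3, TF replicate 3 and TFD replicate 2 held between 30976 and 42152 Xist reads and at most 12 reads of the Y-linked Ddx3y, while the other 8 libraries held at most 538 Xist reads and at least 1040 Ddx3y reads, so all DF libraries were of the second kind. Tet2 and Dnmt3a were not called lower in any group that carries their mutant allele, with Tet2 at a log2 fold change of 0.21 in TF and Dnmt3a at −0.15 in DF. Counts over a whole gene do not check a heterozygous loss, and the labels were taken as given. The marrow was not of uniform makeup across genotypes. Summed CPM of 8 monocyte and macrophage markers ran from 1605 to 1766 in WT and from 4369 to 5619 in the mutants. In DF, TF and TFD versus WT, 6, 7 and 5 of the 8 were called higher, beside 21.0%, 19% and 14.7% of all genes. Summed CPM of 7 B cell markers ran from 457 to 548 in WT and from 15.6 to 112 in the mutants, and Pax5 was at 0 in a DF and a TFD library. Although the labels name mononuclear cells, 6 mature neutrophil markers summed to between 9743 and 24810 CPM. In bulk RNA, a changed number of cells of a type and a changed amount of RNA per cell cannot be told apart.

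Per length, Unc93b1 was the most abundant member in every genotype. In WT it stood at 70.8 ± 5.64 RPKM (reads per kilobase and library size, SD, n = 3), above Tlr2 at 45.2 ± 12.5, Tlr13 at 39.4 ± 7.10 and Cd14 at 36.6 ± 5.14 RPKM, whose ranges overlapped each other. Tlr4, at 23.4 RPKM, and Tlr8, at 23.1 RPKM, formed the next pair with overlapping ranges. Tlr7 followed at 10.1 RPKM and Tlr6 at 6.08 RPKM, each apart from its neighbours. Tlr9 at 4.62 RPKM and Tlr1 at 4.18 RPKM were lowest and overlapped. In the mutants, Tlr8 stood above Tlr4 without overlap in all 3 genotypes, at 24.0 against 16.9 RPKM in TF and at 22.9 against 13.2 RPKM in TFD. Tlr9 moved from the ninth place in WT to the eighth in TF and TFD and to the last in DF, although it overlapped a neighbour in each.

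**Figure D1:**
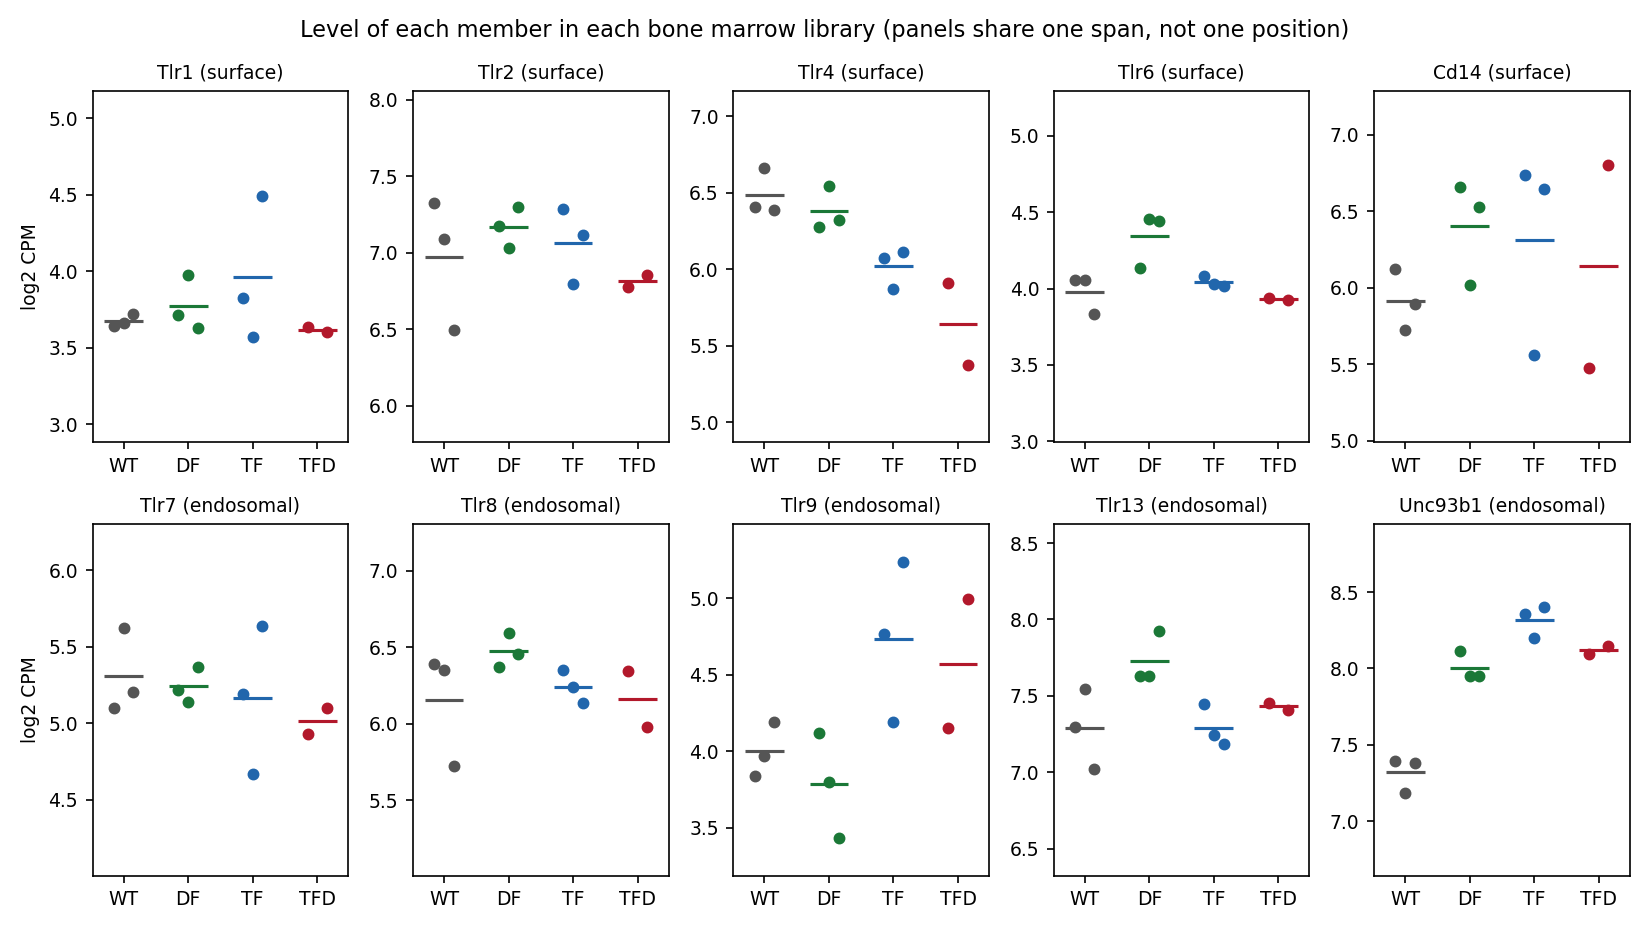
Level of each member in each library, as log2 CPM on the vertical axis, with 1 point per library and a line at the group mean (3 WT, 3 DF, 3 TF and 2 TFD). Unc93b1 lies above its WT range in every mutant library, Tlr4 lies below its WT range in all TF and TFD libraries, and Cd14 spreads widely within TF and TFD.

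Of the 10 members, 3 were called higher and 0 lower between DF and WT by edgeR (adjusted p under 0.05, and likewise 3 higher and 0 lower at an unadjusted p under 0.05, beside 26.6% and 20.8% of all genes), beside 21.0% of all tested genes called higher and 16.6% called lower, 37.6% in all. In TF versus WT, 2 were higher and 1 lower, beside 19% and 15.6% of all genes (34.6% in all). In TFD versus WT, 1 was higher and 1 lower, beside 14.7% and 11.6% of all genes (26.3% in all). With 10 members, these shares were close to those of all genes, and nothing particular to the members is read from them. Unc93b1 was called higher in all 3 genotypes, Tlr4 was called lower in TF and TFD, Tlr9 was called higher in TF, and Tlr13 and Tlr6 were called higher in DF. Tlr1, Tlr2, Tlr7, Tlr8 and Cd14 passed the test in no comparison. The median log2 fold change of the members versus WT was 0.23 for DF, 0.07 for TF and −0.03 for TFD, beside 0.06, 0.02 and 0.01 over all genes.

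**Figure D2:**
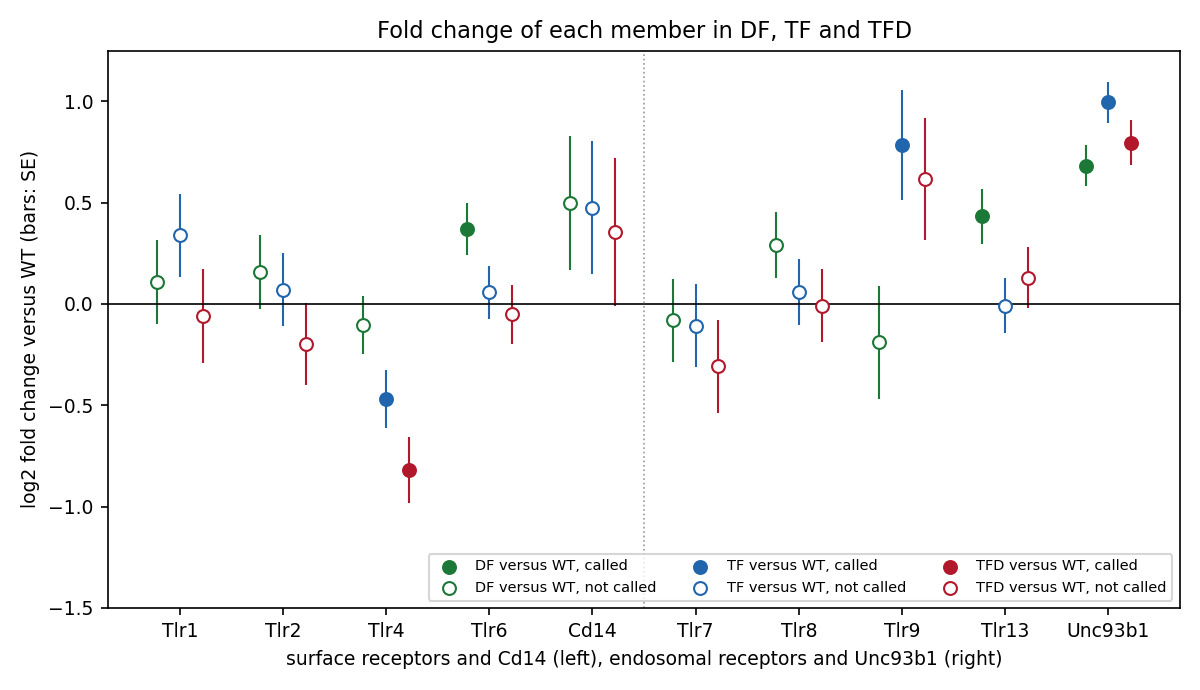
Log2 fold change of each member versus WT in DF, TF and TFD, with bars for the standard error and filled points for members called at an adjusted p under 0.05. Unc93b1 has filled points between 0.68 and 0.996 in all 3 genotypes, and Tlr4 has filled points at −0.47 in TF and −0.82 in TFD.

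Unc93b1, the chaperone of the endosomal receptors, stood at a log2 CPM of 7.40, 7.19 and 7.38 in the WT libraries. Its level was 8.12, 7.95 and 7.95 in DF, 8.36, 8.20 and 8.40 in TF, and 8.10 and 8.15 in TFD. Every mutant library was above every WT library, and every TF library was above every DF and TFD library. On the log2 scale Unc93b1 rose by 0.68 ± 0.10 in DF versus WT (SE, adjusted p = 0.000254) and by 0.80 ± 0.11 in TFD versus WT (adjusted p = 0.000267). The rise in TF versus WT was 0.996 ± 0.10 (adjusted p = 2.28e-05). These calls held in each of the 22 alternative fits, with adjusted p of at most 0.00213 (DF), 0.000281 (TF) and 0.00449 (TFD). The monocyte marker sum was likewise above its WT range in every mutant library, and its part in the Unc93b1 result was not tested.

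Tlr9, the receptor for unmethylated CpG DNA, had the widest range among the endosomal receptors. Its level was 3.84, 3.97 and 4.19 log2 CPM in WT, 4.12, 3.80 and 3.43 in DF, 4.77, 4.19 and 5.24 in TF, and 4.15 and 5.0 in TFD, from 109 to 413 reads per library. TF replicate 3 and TFD replicate 2 were the highest, while TF replicate 2 and TFD replicate 1 lay within the WT range. Tlr9 rose by 0.79 ± 0.27 in TF versus WT (adjusted p = 0.0408). Its log2 fold change of 0.62 ± 0.30 in TFD (adjusted p = 0.15) did not pass, nor did that of −0.19 ± 0.28 in DF (adjusted p = 0.615). The TFD value was 0.15 without TFD replicate 2 and 0.99 without TFD replicate 1 (adjusted p = 0.784 and 0.0504). The TF call was lost without any 1 of WT replicate 1 (adjusted p = 0.121), WT replicate 2 (0.105), WT replicate 3 (0.0607), DF replicate 2 (0.0557), TF replicate 1 (0.0813) or TF replicate 3, where the log2 fold change fell to 0.50 (adjusted p = 0.147). It was also lost among libraries without many Xist reads (0.60, adjusted p = 0.0675).

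Tlr9 is known for its expression in dendritic cells and B cells, whose markers were read in the same libraries. The 5 classical dendritic cell markers Xcr1, Clec9a, Zbtb46, Cd209a and Itgax summed to between 45.0 and 54.7 CPM in WT, 30.2 and 67.5 in DF, 127 and 342 in TF, and to 66.9 and 162 in the TFD libraries. Of these 5, 4 were called higher in TF versus WT, 3 in TFD and 0 in DF, beside 19%, 14.7% and 21.0% of all genes. In DF, Zbtb46 was called lower (log2 fold change −2.46, adjusted p = 0.000604). The 3 libraries with the most Tlr9 were TF replicate 3 (37.7 CPM of Tlr9, marker sum 342), TFD replicate 2 (31.9 CPM, marker sum 162) and TF replicate 1 (27.2 CPM, marker sum 217), and they also had the 3 highest marker sums. DF replicate 3 had the least of both, with 10.8 CPM of Tlr9 and a marker sum of 30.2. The other libraries did not keep one order, since the next in Tlr9, WT replicate 3 (18.3 CPM), had a marker sum of 45.0, below all libraries but DF replicate 3. The 6 plasmacytoid dendritic cell markers summed to between 156 and 182 CPM in WT, 67.2 and 74.9 in DF, 129 and 344 in TF, and to 82.6 and 132 in TFD, with Cox6a2 at 0 in a DF and a TFD library. TFD replicate 2, with more Tlr9 than any WT library, had a plasmacytoid sum of 132, below all WT libraries. B cell markers were lower in each mutant library, including those with the most Tlr9. The part of these cells in the Tlr9 result was not tested.

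**Figure D3:**
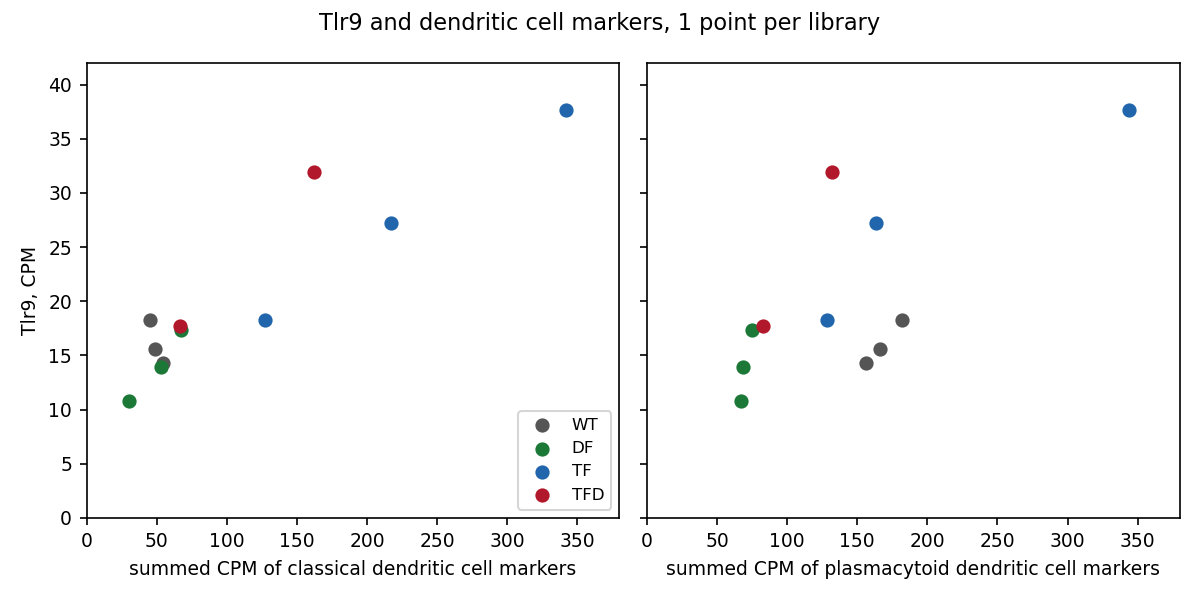
CPM of Tlr9 on the vertical axis against the summed CPM of 5 classical dendritic cell markers (left) and of 6 plasmacytoid dendritic cell markers (right), with 1 point per library colored by genotype. TF replicate 3 lies at the top right of both panels, and the 3 DF libraries lie at the low end of the plasmacytoid sum.

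Tlr13, a mouse receptor for bacterial ribosomal RNA, stood at 7.30, 7.55 and 7.02 log2 CPM in WT and at 7.63, 7.63 and 7.93 in DF. The DF libraries lay above all WT libraries. Its level was 7.44, 7.25 and 7.18 in TF and 7.46 and 7.41 in TFD, within the WT range. The fold change in DF versus WT was 0.43 ± 0.14 (adjusted p = 0.0244), and it was −0.01 ± 0.14 in TF and 0.13 ± 0.15 in TFD. Tlr13 is X-linked, and no DF library was among those with many Xist reads. Among libraries without many Xist reads the log2 fold change in DF was 0.27 (adjusted p = 0.135), and the call was also lost without WT replicate 1 (0.0765), WT replicate 3 (0.141) or DF replicate 3 (0.128).

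Tlr7 and Tlr8, receptors for single-stranded RNA and its breakdown products, passed no test. Tlr7 was at 5.10, 5.63 and 5.21 log2 CPM in WT, 5.22, 5.14 and 5.37 in DF, 5.19, 4.67 and 5.64 in TF, and 4.93 and 5.10 in TFD. TF replicates 2 and 3 were the lowest and the highest of all 11 libraries. Its log2 fold change was between −0.31 ± 0.23 in TFD and −0.08 ± 0.20 in DF. Tlr8 was at 6.39, 6.35 and 5.72 log2 CPM in WT, 6.38, 6.59 and 6.46 in DF, 6.35, 6.24 and 6.14 in TF, and 6.35 and 5.98 in TFD. WT replicate 3 was the lowest library for Tlr8, for Tlr13 and for Tlr2. The log2 fold change of Tlr8 was 0.29 ± 0.16 in DF (adjusted p = 0.174), 0.06 ± 0.16 in TF and −0.01 ± 0.18 in TFD. Without WT replicate 3 these were 0.07, −0.14 and −0.20.

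Among the surface receptors, Tlr4 was the member that fell. It stood at 6.41, 6.66 and 6.39 log2 CPM in WT and 6.28, 6.55 and 6.33 in DF, which overlapped WT. Its level was 6.08, 5.88 and 6.11 in TF and 5.91 and 5.38 in TFD, all below every WT and DF library. Tlr4 fell by 0.47 ± 0.14 on the log2 scale in TF versus WT (adjusted p = 0.0234) and by 0.82 ± 0.16 in TFD versus WT (adjusted p = 0.00292), and its log2 fold change was −0.10 ± 0.14 in DF. The TFD call held in each of the 22 alternative fits, between −1.12 and −0.57, with adjusted p of at most 0.0334. The TF call was lost without WT replicate 2 (log2 fold change −0.38, adjusted p = 0.0972), without TF replicate 1 (−0.49, adjusted p = 0.0529) and without TF replicate 2 (−0.40, adjusted p = 0.0893). Neutrophils are among the marrow cells that express Tlr4. Their 6 tested markers summed to between 15920 and 24190 CPM in WT, 10490 and 14730 in TF and 9743 and 16140 in TFD. Of the 6, 3 in TF and 1 in TFD were called lower, beside 15.6% and 11.6% of all genes. The part of neutrophils in the Tlr4 result was not tested.

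Cd14, which hands lipopolysaccharide to TLR4 and marks monocytes, was the member with the widest spread inside a genotype. It stood at 6.13, 5.72 and 5.90 log2 CPM in WT and 6.66, 6.02 and 6.53 in DF. Within TF the libraries stood at 6.74, 5.56 and 6.64, and those of TFD at 5.48 and 6.81, so that both genotypes held a library below and a library above all WT values. The log2 fold change was 0.50 ± 0.33 in DF (adjusted p = 0.25), 0.48 ± 0.33 in TF and 0.36 ± 0.37 in TFD. Its sign in TFD rested on single libraries, at −0.45 without TFD replicate 2 and 0.88 without TFD replicate 1. In TF the value ran from 0.27 to 0.77 with single libraries left out. The monocyte marker sums were 5619, 4801 and 4369 CPM in TF and 4822 and 4701 in TFD, in the same order of libraries, and their part in the spread of Cd14 was not tested.

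Tlr2, the shared subunit of the lipopeptide receptors, stood at 7.33, 7.09 and 6.50 log2 CPM in WT, 7.17, 7.03 and 7.30 in DF, 7.29, 6.80 and 7.11 in TF, and 6.78 and 6.85 in TFD. All mutant values lay within the WT range. Its partner Tlr6 stood at 4.05, 4.05 and 3.83 in WT and at 4.14, 4.46 and 4.44 in DF, above all WT libraries. The TF libraries, at 4.08, 4.03 and 4.02, and the TFD libraries, at 3.94 and 3.92, lay at or near the WT range. Tlr6 rose by 0.37 ± 0.13 in DF versus WT (adjusted p = 0.0391), a call that 15 of the 22 alternative fits lost, with adjusted p between 0.0512 and 0.205. Among these were DESeq2, other scaling factors, the Xist term, only the groups compared (0.0932), only libraries without many Xist reads (0.205) and the omission of any 1 library other than DF replicate 1, TF replicate 3 or TFD replicate 1. The partner of TLR2 in the other receptor, Tlr1, stood at 3.64, 3.66 and 3.72 in WT and between 3.57 and 3.98 in all mutant libraries but TF replicate 3, at 4.50. Its log2 fold change was 0.34 ± 0.21 in TF (adjusted p = 0.219), and 0.03 without TF replicate 3.

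The comparison of the endosomal with the surface receptors used the mean log2 CPM of Tlr7, Tlr8, Tlr9 and Tlr13 minus that of Tlr1, Tlr2, Tlr4 and Tlr6 in each library. This difference was 0.30, 0.51 and 0.43 in WT, 0.51, 0.29 and 0.37 in DF, 0.62, 0.52 and 0.61 in TF, and 0.65 and 0.93 in TFD. All TF and TFD libraries were above all WT libraries, TF replicate 2 narrowly (0.519 against 0.506 in WT replicate 2), and DF overlapped WT. Relative to WT the mean differed by −0.02 for DF, 0.18 for TF and 0.38 for TFD. Without Tlr9 the TF value went to −0.01 and the TFD value to 0.23. No surface receptor was left out in this way, although Tlr4 was called lower in both genotypes, so the shift is not assigned to a single receptor. The TFD value was 0.24 without TFD replicate 2 and 0.25 among libraries without many Xist reads. As a share of the summed RPKM of the 8 receptors, the endosomal receptors made up 49.5% ± 2.30 in WT (SD, n = 3), 52.9% ± 0.61 in DF (n = 3), 51.5% ± 1.51 in TF (n = 3) and 56.5% ± 0.37 in TFD (n = 2). On this scale TF overlapped WT, while DF and TFD lay above it. The 8 receptors summed to 156 ± 25.5 RPKM in WT, and to 180 ± 9.58, 157 ± 16.6 and 144 ± 3.55 RPKM in DF, TF and TFD respectively.

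The level of the chaperone was also set against that of the receptors it carries. Unc93b1 over the summed RPKM of the 4 endosomal receptors gave ratios of 0.95, 0.72 and 1.16 in WT, 1.36, 1.18 and 1.07 in DF, 1.68, 1.77 and 1.83 in TF, and 1.47 and 1.56 in TFD. The TF and TFD libraries lay above all WT and DF libraries, and DF overlapped WT. These ratios compare RNA levels per length and do not measure protein.

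**Figure D4:**
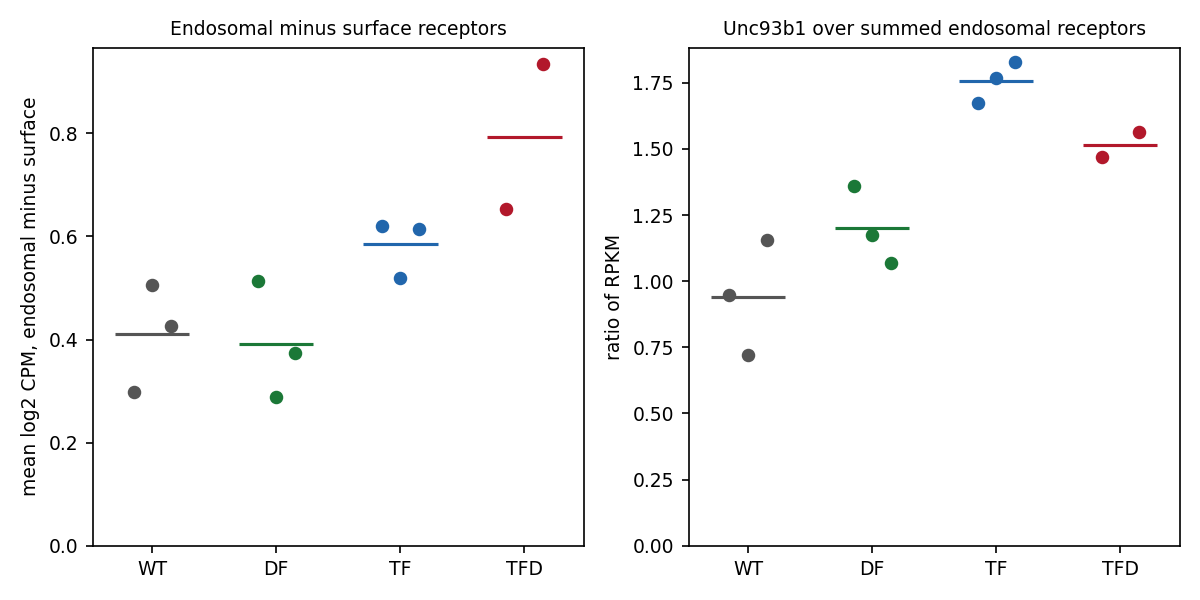
Left, mean log2 CPM of the 4 endosomal receptors minus that of the 4 surface receptors; right, RPKM of Unc93b1 over the summed RPKM of the 4 endosomal receptors. Each point is 1 library and each line a group mean. TF and TFD lie above WT on both axes, with ratios from 1.47 to 1.83 on the right.

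Between mutant genotypes, 0 of the 10 members were called in DF versus TF, where edgeR called 5.94% of all genes (1.67% higher in DF and 4.27% lower). At an unadjusted p under 0.05 the count was 5 members, beside 19% of all genes, and DESeq2 called 3, beside 8.8% of all genes. Tlr9 was lower in all DF than in all TF libraries, with a log2 fold change of −0.97 ± 0.27 (adjusted p = 0.0552). The other members closest to the threshold were Tlr13 at 0.44 ± 0.14 (adjusted p = 0.0788) and Unc93b1 at −0.31 ± 0.10 (adjusted p = 0.0878), and these 3 were the calls of DESeq2. Leaving out TF replicate 2 gave Tlr9 a log2 fold change of −1.20 (adjusted p = 0.013). With single libraries left out its value ran from −1.20 to −0.69, and its adjusted p reached 0.212 among the 22 alternative fits. Leaving out TFD replicate 1 gave −0.974 and leaving out TFD replicate 2 gave −0.995. In DF versus TFD, 0 members were called, beside 0.0% of all genes, with 3 at an unadjusted p under 0.05 (14.2% of all genes) and 1 by DESeq2 (2.12% of all genes). Tlr4 was 0.71 higher in DF than in TFD on the log2 scale (adjusted p = 0.11), and DESeq2 (adjusted p = 0.0104) and the fit without TF replicate 3 (0.0417) called it. With single libraries left out, this log2 fold change ran from 0.44 to 1.01, the latter without TFD replicate 1. In TF versus TFD, 0 members were called, beside 0.0164% of all genes (0.00821% in each direction), with 1 at an unadjusted p under 0.05 (8.77% of all genes) and 0 by DESeq2 (1.08%).

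Of the 4 TLR genes outside the member list, Tlr3, Tlr11 and Tlr12 had at most 115 reads in a library, whereas Tlr5, at 4.24 RPKM in WT, was close to the level of the member Tlr1 there. Tlr3, the receptor for double-stranded RNA, had 13 to 16 reads in WT, 5 to 32 in DF, 38, 66 and 115 in TF, and 51 and 61 in TFD. It rose by 2.14 ± 0.53 in TF versus WT (adjusted p = 0.00787) and was lower in DF than in TF (log2 fold change −1.84, adjusted p = 0.0489). The call of DF versus TF was lost in 12 of the 22 alternative fits (adjusted p up to 0.197, without TF replicate 3), and among libraries without many Xist reads the call of TF versus WT was lost (0.0515). Tlr11, a receptor for profilin, had 5 to 8 reads in WT and 12, 56 and 85 in TF, and it rose versus WT by 2.92 in TF and 2.44 in TFD (adjusted p = 0.00775 and 0.0345). Without any 1 of the WT or TFD libraries the TFD call was lost, with adjusted p between 0.0642 and 0.121, and among libraries without many Xist reads the TF call (0.0608) and the TFD call (0.13) were lost. Tlr12, the partner of TLR11, had 20 to 34 reads in WT, 11 to 31 in DF, 44, 46 and 70 in TF, and 37 and 45 in TFD. It was lower in DF than in TF (−1.51, adjusted p = 0.0207), a call lost without DF replicate 1 (0.0592), DF replicate 2 (0.0591), DF replicate 3 (0.0804) or TF replicate 3 (0.0704). Tlr5, the flagellin receptor, had 132 to 144 reads in WT, 136 to 192 in DF, 72 to 116 in TF, and 98 and 187 in TFD. It fell by 0.67 in TF versus WT (adjusted p = 0.0302), and this was lost without WT replicate 2 (0.121), WT replicate 3 (0.0522), TF replicate 1 (0.0507) or TF replicate 3 (0.0849), and among libraries without many Xist reads (0.0864). For Tlr3, Tlr11 and Tlr12, TF replicate 3 was the highest of the 11 libraries, as it was for Tlr9.

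The rest of the pathway was read from a list of 87 genes, of which 78 were tested. In DF versus WT, 20 were higher and 17 lower (47.4% of those tested), in TF versus WT 22 and 13 (44.9%), and in TFD versus WT 15 and 11 (33.3%), beside 37.6%, 34.6% and 26.3% of all genes. In all 3 genotypes alike, 14 genes were higher and 8 lower. The share of all genes called alike in all 3 was not computed, so nothing particular to the pathway is read from this count. The median log2 fold change of the 78 genes lay between −0.003 (TFD) and 0.06 (DF), which is close to that of all genes.

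Of 13 tested genes that prepare endosomal receptors or their ligands, 5 were higher and 3 lower in DF (61.5% in all, beside 37.6% of all genes), 8 and 1 in TF (69.2%, beside 34.6%), and 5 and 1 in TFD (46.2%, beside 26.3%). Higher in all 3 genotypes were Ctss and Ctsb, cathepsins that cleave endosomal TLRs, Pld4 and Dnase2a, nucleases of the endolysosome, and Slc29a3, a lysosomal nucleoside transporter. In the order DF, TF, TFD, Pld4 rose by 1.35 ± 0.13, 1.43 ± 0.13 and 1.33 ± 0.14, and Ctss rose by 1.11 ± 0.13, 1.38 ± 0.13 and 1.14 ± 0.14. Ctsk, a cathepsin best known from osteoclasts, fell by between 1.64 and 2.40, with the TFD call lost without WT replicate 3 (adjusted p = 0.069) or TFD replicate 1 (0.164). The calls of the smaller changes of Slc29a3 (0.55 to 0.94) and Ctsb (0.38 to 0.53) were lost for Slc29a3 in DF without WT replicate 1, WT replicate 3 or DF replicate 1 (adjusted p up to 0.0902), for Slc29a3 in TFD without TFD replicate 2 (0.074) or among libraries without many Xist reads (0.124), and for Ctsb in TFD without any 1 of the WT libraries, TF replicate 1 or TFD replicate 1 (up to 0.259) or with only the groups compared (0.113). Cnpy3, a folding chaperone of TLRs, was the gene of 6 for folding and trafficking that rose, by 0.68 to 0.78. Several of these genes are lysosomal genes of monocytes and macrophages, whose markers were higher in the same libraries, and the part of those cells was not tested.

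Of 5 tested accessory genes of the cell surface, 2 were called higher and 1 lower in DF versus WT, 2 and 0 in TF, and 1 and 0 in TFD. The shares of all genes called in either direction were 37.6%, 34.6% and 26.3%. Ly86, which encodes the partner of the TLR4-like protein CD180, rose by 1.33 ± 0.14 (DF), 1.84 ± 0.14 (TF) and 1.29 ± 0.15 (TFD). The TLR4 partner Ly96 had log2 fold changes between −0.16 and −0.02 and passed no test. Of the adaptors, Ticam2, which links TLR4 to the interferon branch, rose by between 1.11 and 1.47, and Pik3ap1 fell by between 0.78 and 0.89. Myd88, the adaptor shared by most TLRs, rose by 0.51 ± 0.12 in DF (adjusted p = 0.00581) and had log2 fold changes of 0.25 in TF and 0.27 in TFD that did not pass.

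Of 17 kinases and ligases, 6 were higher and 3 lower in DF versus WT, 3 and 3 in TF, and 3 and 2 in TFD, beside 37.6%, 34.6% and 26.3% of all genes in both directions together. The ubiquitin ligase gene Peli1 fell by between 0.56 and 0.70 and Tab3, an adaptor of the kinase TAK1, by between 0.54 and 0.59. Tab1, another TAK1 partner, rose by between 0.45 and 0.55, and the IκB kinase gene Ikbkb rose by between 0.42 and 0.58. In TFD, calls were lost for Peli1 without WT replicate 2 (adjusted p = 0.0808) or TFD replicate 1 (0.161), for Tab3 without TFD replicate 1 (0.114), and for Tab1 without WT replicate 2 (0.0664), WT replicate 3 (0.0621) or TFD replicate 1 (0.123), with only the groups compared (0.0857) and among libraries without many Xist reads (0.075). The calls of Ikbkb were lost in DF without WT replicate 3 (0.1), DF replicate 1 (0.0721) or DF replicate 3 (0.0558), in TF without WT replicate 3 (0.0965), TF replicate 1 (0.0887) or TF replicate 2 (0.0508), in TFD without TFD replicate 2 (0.0774), and among libraries without many Xist reads in DF (0.0705) and TFD (0.139).

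Of 8 transcription factors, Irf5 and Nfkb1 were higher in all 3 genotypes. Irf5, which drives inflammatory genes below TLR7 and TLR9, was at 5.99, 5.72 and 5.76 log2 CPM in WT and between 7.26 and 7.62 in all mutant libraries. Irf5 rose by 1.56 ± 0.12 in DF and by 1.63 in both TF (± 0.12) and TFD (± 0.13) (adjusted p of at most 4.63e-06). Irf7, which drives type I interferon genes, went in opposite directions. Its level was 4.77, 4.77 and 4.95 log2 CPM in WT, 3.94, 3.82 and 4.40 in DF, 5.54, 5.16 and 6.10 in TF, and 4.54 and 4.75 in TFD. All DF libraries were below and all TF libraries above the WT range. Irf7 fell by 0.77 ± 0.22 in DF versus WT (adjusted p = 0.0144; 0.0502 without DF replicate 1 and 0.0669 without DF replicate 2), rose by 0.81 ± 0.21 in TF versus WT (adjusted p = 0.00987), and was lower in DF than in TF by a test of that difference (log2 fold change −1.58 ± 0.22, adjusted p = 0.00299). With single libraries left out, the log2 fold change of Irf7 in TF versus WT ran from 0.53 to 1.01. Plasmacytoid dendritic cells express Irf7 highly. Their markers summed to less than the WT range in all DF libraries and overlapped WT in TF. Of these 6 markers, 0 were called higher and 5 lower in DF versus WT, 1 and 1 in TF, and 0 and 3 in TFD. The shares of all genes called lower were 16.6%, 15.6% and 11.6%. The part of these cells in the Irf7 result was not tested.

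Of 10 negative regulators, 1 was higher and 4 lower in DF, 1 and 3 in TF, and 1 and 3 in TFD, beside 21.0% and 16.6%, 19% and 15.6%, and 14.7% and 11.6% of all genes. Nfkbia, the inhibitor of NF-κB, fell by 1.18 ± 0.14 (DF), 0.83 ± 0.14 (TF) and 1.06 ± 0.16 (TFD). Il1rl1, the interleukin 33 receptor gene, fell by 2.71, 1.38 and 1.63, and the TFD call was lost without TFD replicate 1 (adjusted p = 0.0604). Sigirr, an inhibitory receptor of the interleukin 1 receptor family, rose by 0.57 (DF), 0.64 (TF) and 0.56 (TFD). Its calls were lost without WT replicate 1 (0.051), WT replicate 2 (0.0554) or DF replicate 2 (0.0541) in DF, without TF replicate 1 (0.0513) in TF, and in TFD without WT replicate 1 (0.0711), WT replicate 2 (0.101) or either TFD library (0.0864 and 0.108), with only the groups compared (0.0669) and among libraries without many Xist reads (0.0692). Of 10 tested target genes, 1 was higher and 4 lower in DF, 1 and 4 in TF, and 0 and 4 in TFD, beside the same shares of all genes. Cxcl2, a neutrophil-attracting chemokine, was at 6.54, 5.81 and 6.15 log2 CPM in WT, 4.83, 4.45 and 4.68 in DF, 4.41, 3.88 and 4.31 in TF, and 3.57 and 3.64 in TFD, with no overlap between WT and any mutant. Cxcl2 fell by 1.54 ± 0.19 (DF), 1.99 ± 0.19 (TF) and 2.60 ± 0.23 (TFD), each versus WT (adjusted p of at most 5.96e-05). Il12a, a subunit gene of interleukin 12, fell by between 0.87 and 1.22, and its calls were lost without DF replicate 2 in DF (adjusted p = 0.0544), without WT replicate 1 (0.103), WT replicate 3 (0.0782) or TF replicate 1 (0.119) in TF, and without TFD replicate 2 in TFD (0.113). Among libraries without many Xist reads, the Il12a calls in TF (0.0537) and TFD (0.146) were also lost. Tnf passed no test, with log2 fold changes from −0.13 in TFD to 0.50 in DF, where 6 of the 22 alternative fits called it. In TFD its value rested on single libraries, at −0.63 without TFD replicate 1 (adjusted p = 0.0476) and 0.23 without TFD replicate 2 (adjusted p = 0.396).

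In DF versus TF, 2 of the 78 pathway genes were higher and 7 lower, which is 11.5% beside 5.94% of all genes. Higher in DF were Lbp, the lipopolysaccharide-binding protein (0.79, adjusted p = 0.0374), and Ikbke, a kinase of the interferon branch (0.48, adjusted p = 0.0233). Lower in DF were Tlr3, Tlr12, Irf7, Ly86 (−0.51, adjusted p = 0.0465), Il1rl1 (−1.34, adjusted p = 0.0345), the scavenger receptor gene Cd36 (−1.53, adjusted p = 0.0245) and the interferon-induced chemokine gene Cxcl10 (−1.81, adjusted p = 0.0425). Markers of other cells moved the same way, with 5 of 5 erythroid (median log2 fold change −2.88), 6 of 6 plasmacytoid and 4 of 5 classical dendritic cell markers called lower in DF than in TF, beside 4.27% of all genes. The erythroid markers summed to between 461 and 582 CPM in WT, 42.4 and 67.3 in DF, 185 and 631 in TF, and 150 and 277 in TFD, and the part of these cells was not tested. Granulocyte markers lay on the other side, with 6 of 6 mature neutrophil markers (median 0.72, 0 called) and 4 of 4 early granulocyte markers (median 0.66, with Elane called) positive in DF versus TF. Single calls were also lost, those of Lbp and Ikbke in 7 of the 22 alternative fits each (adjusted p up to 0.139 and 0.123), Ly86 in 10 (up to 0.172), Il1rl1 in 6 (up to 0.117), Cd36 in 3 (up to 0.125) and Cxcl10 in 13 (up to 0.179), while that of Irf7 held in each. The highest of these followed without DF replicate 2 for Lbp, Ikbke and Cd36, without DF replicate 3 for Il1rl1, without TF replicate 1 for Ly86 and without TF replicate 3 for Cxcl10. The count of pathway genes moved with single libraries, from 1 without DF replicate 2 or TF replicate 3 to 15 without TF replicate 2. It was 2 without DF replicate 1, 3 without DF replicate 3, 4 without WT replicate 2 and 5 without TF replicate 1. Calls over all genes, 723 in the main fit, moved as well. Dropping DF replicate 2 left 169 of them, dropping TF replicate 3 left 339, and dropping TF replicate 2 gave 934. No movement particular to the pathway genes is therefore read from these counts.

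**Figure D5:**
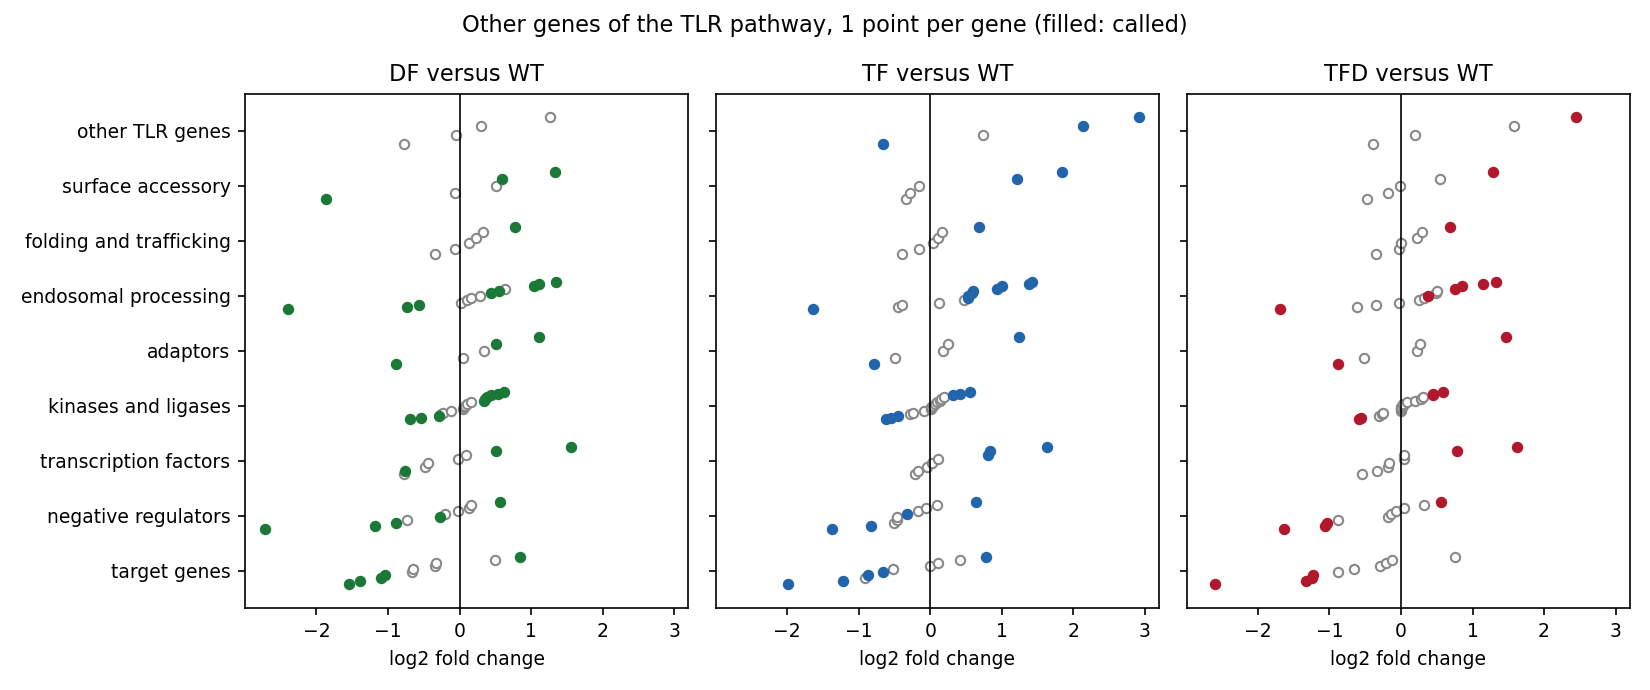
Log2 fold change versus WT of the 78 tested pathway genes outside the member list, by role, in DF, TF and TFD; filled points are genes called at an adjusted p under 0.05. Negative regulators and target genes hold filled points far to the left, down to −2.71 for Il1rl1 in DF and −2.60 for Cxcl2 in TFD. Endosomal processing genes hold filled points on both sides, from −2.40 for Ctsk in DF to 1.43 for Pld4 in TF.

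For each member, the tested gene whose log2 CPM followed it most closely over the 11 libraries was taken as a description, without a test. Unc93b1 was followed most closely by Calhm2 (Pearson r = 0.99, and 0.99 within the 8 mutant libraries). Tlr9 was followed by Tmcc3 (r = 0.98, and 0.98 within the mutants), Tlr13 by Pstpip2 (0.97, and 0.95), and Tlr8 by Trim6 (0.94, and 0.93). Tlr6 went with Lbr (0.93), Tlr4 with Glrx (0.91), Cd14 with Mir24-2 (0.86), Tlr1 with Mtpap (0.85) and Tlr7 with Mapre2 (0.83). The gene most like Tlr2 was Irak2 (0.84), a kinase of the same pathway. The points share library preparation and genotype groups, and the best of all tested genes is high by selection.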

How the data were processed

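The authors aligned reads of a stranded total RNA library, made after globin transcripts were depleted, to mm10 with STAR, counted unique alignments per refGene gene with featureCounts and deposited raw counts for 12199 genes. The sources used here give neither versions nor the strand setting. The log2 CPM values that the authors deposited were reproduced from the counts to within 5e-09 by edgeR's cpm with TMM factors and 0.25 as prior count. The deposited gene length, a column of another kind, gave RPKM from the counts.

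A gene entered the tests where more than 3 of the 11 libraries exceeded 0.5 CPM, and 12175 did. The main test was the quasi-likelihood F test of edgeR 4.0.16 (R 4.3.3) with TMM factors and a mean for each of 4 genotypes, with Benjamini-Hochberg adjustment over all genes. Calls were made at an adjusted p under 0.05. Errors of fold changes are standard errors, and those of levels are SDs over libraries. With totals of 8274153 to 15900904 counts, precision is limited by the 2 or 3 libraries a genotype and, for low genes, by counting error.

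As alternatives, the fits were repeated with DESeq2 1.42.0, with library totals and with RLE factors as scaling, with no filter, filterByExpr, limma 3.58.1 on log2(CPM + 1), a loess fit on gene length (span 0.3), the replicate number as a block, a model term marking those with 10000 or more Xist reads, the libraries without such reads, only the groups compared, and single libraries left out. The named genes are the members, the other TLR genes, up to 4 genes of each pathway list called alike in all 3 mutant genotypes, pathway genes called between mutants, the tested gene most like each member, and Xist and Ddx3y. Genes outside this rule (Myd88, Ly96, Tnf, Slc29a3, Ctsb, Tet2, Dnmt3a and the marker genes named) were chosen after their values were seen. The members and lists were chosen with earlier results of these data known. The procedures were tested on simulated data. Figures were drawn with matplotlib 3.10.9 in Python 3.11.15. TFD replicate 3 was not analysed here.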

Additional observations from a re-analysis of the deposited data

Results flagged for a closer look

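Irf7 was called in opposite directions versus WT in DF (log2 fold change −0.77) and TF (0.81), and the difference of DF versus TF, tested itself with edgeR, was −1.58 (adjusted p = 0.00299). It held in each of the 22 alternative fits, between −1.79 and −1.30. The value of DF versus WT alone was lost without DF replicate 1 or DF replicate 2, with adjusted p of at most 0.0669.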

How the results depend on the processing

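Unc93b1 in all 3 mutant genotypes and Tlr4 in TFD versus WT were called in each of the 22 alternative fits. The members called in DF versus WT fell from 3 to 1 among libraries without many Xist reads and ranged from 1 to 3 when single libraries were left out. Over all genes, 4393 were called among libraries without many Xist reads and 3392 without DF replicate 1, against 4583 in the main fit. In TF versus WT the members called ranged from 1 to 3, while 2853 of all genes were called without TF replicate 1, against 4216 in the main fit. In DF versus TF, where 0 were called, DESeq2 called 3, library totals 2, RLE factors 1 and the fit on gene length 1, and the range over single libraries left out was 0 to 1. In DF versus TFD, DESeq2 called 1 member, beside 258 of all genes, and the range of members over single libraries left out was 0 to 1. Pathway genes called in DF versus WT ranged from 24 to 42 when single libraries were left out. In DF versus TF they numbered 5 with only the groups compared, 5 among libraries without many Xist reads, and 1 to 15 over single libraries left out. The counts over all genes were 591, 529 and 169 to 934 in the same order. Without the X-linked receptors, that is with Tlr9 alone, the endosomal minus surface difference relative to WT was −0.35 (DF), 0.74 (TF) and 0.85 (TFD). Without Tlr9 it was −0.013 in TF and 0.229 in TFD. In 29 cases an uncalled value of 1 of 8 members versus WT changed sign, with values of at most 0.473 in size, and no called value did. The cause of these changes was not tested, beyond the smaller number of libraries in some fits. Cd14 in DF versus WT was called with only the groups compared (adjusted p = 0.0351).

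The replicate numbers did not pair the libraries: over 15 pairs with the same number the correlation of deviations ran from −0.315 to 0.266, 3 were over 0.1, and 4 libraries correlated best with their own number. With the replicate block, the adjusted p was 0.0553 for Tlr9 in TF versus WT, 0.0586 for Tlr6 in DF versus WT and 0.0792 for Sigirr in TFD versus WT. The members called with the block numbered 2 for DF, 2 for TF and 2 for TFD versus WT, beside 4492, 4166 and 2722 of all genes. The filterByExpr setting kept all 12199 genes and equals no filter. Changing the scaling moved the median log2 fold change of all genes by at most 0.094. With 2 or 3 libraries a genotype and 5 to 115 reads per library for Tlr3, Tlr11 and Tlr12, changes of low receptors are held less firmly than those of Unc93b1.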
